A study of Mus musculus with 18 samples.

Results

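Rapamycin acted on these leukemia cells in the presence of either of 2 base editors, and the question here is whether its effect on gene expression differed between them. The contrast takes the log2 ratio of rapamycin to vehicle in cells with seBE and subtracts the same ratio in cells with intact BE. It uses 12 of the 18 libraries of the series, 3 in each of 4 groups. These are seBE under rapamycin, seBE under vehicle, intact BE under rapamycin and intact BE under vehicle. The cells are RN2, an established mouse acute myeloid leukemia line that carries the MLL-AF9 fusion and NrasG12D and is otherwise labelled wild type. They were transduced with an editor by lentivirus and sorted on day 5, after 24 h with 1 nM rapamycin or with vehicle. Intact BE is a base editor whose active evoA1 deaminase is always joined to the Cas9 nickase. seBE is a base editor placed under small-molecule control, here by rapamycin. The nCas9 and catalytic mutant cells, the other 6 libraries, received no rapamycin and are not part of the contrast. They enter here through the choice of genes tested, the scaling of libraries and the shared estimate of spread. Their levels are given for a few genes.

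Rapamycin binds the immunophilin FKBP12, encoded by Fkbp1a, and the pair inhibits mTORC1, the kinase complex that couples amino acid and growth factor supply to protein synthesis. mTORC1 activity also raises ATF4, a transcription factor that drives genes for serine, glycine, asparagine and folate metabolism. Inhibition of mTORC1 is known to relieve feedback on receptor and RAS-MAPK signalling, whose early targets include the EGR transcription factors. In seBE cells rapamycin is both the switch of the editor and the drug, so the 2 roles cannot be told apart in these libraries.

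The count tables held 14590542 to 22490858 reads per library in seBE and 14789497 to 23284932 in intact BE. In both editors the rapamycin libraries were the deeper ones, from 20787927 in seBE and from 20044158 in intact BE, against at most 20518353 in seBE and 18590586 in intact BE under vehicle. The leukemia genes Hoxa9, at 248 to 311 CPM (reads scaled to library size), and Myb, at 1090 to 1320 CPM, were present in all 12 libraries. So was Ptprc, the general leukocyte gene that encodes CD45, at 330 to 468 CPM. Mitochondrially encoded genes took 3.58% ± 0.893 (SD, n = 3) of counts in seBE under rapamycin, 3.19% ± 0.794 in seBE under vehicle, 2.11% ± 0.132 in intact BE under rapamycin and 1.88% ± 0.125 in intact BE under vehicle. Replicates 1 to 3 of a group are labelled biological, but whether each was a separate transduction is not stated, and the p-values cover no more than their spread.

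Rapamycin changed 28 genes differently in the 2 editors. Of 14985 genes tested, 11 had a positive difference, meaning that the ratio of rapamycin to vehicle was higher in seBE than in intact BE, and 17 a negative one, at an adjusted p of at most 0.05. That is 0.187% of genes in all, 0.0734% in the positive and 0.113% in the negative direction. At an unadjusted p under 0.05 there were 1044 genes, or 6.97%, of which 519 (3.46%) were positive and 525 (3.5%) negative. The 28 differences ran from 0.42 to 2.51 in size on the log2 scale with a median of 0.76, and 10 of them were 2-fold or more. Over all genes tested the median size was 0.19.

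All 28 genes had the larger response in intact BE. The log2 ratio of rapamycin to vehicle had a median size of 0.83 there, with a range of 0.41 to 2.55, and a median size of 0.07 in seBE, where the largest was 0.40. The 17 negative genes had a median log2 ratio of 0.03 in seBE and 0.76 in intact BE, and the 11 positive genes had -0.08 in seBE and -0.97 in intact BE. Both ratios had the same sign in 18 of the 28 and opposite signs in 10. In 25 of the 28 the 3 intact BE rapamycin libraries lay outside the range of the other 9 libraries, above it in 16 and below it in 9. The 3 libraries of seBE under rapamycin lay outside in 0 of the 28, those of seBE under vehicle in 1 and those of intact BE under vehicle in 8. Over all genes tested the shares were 6.61% for intact BE under rapamycin, 0.941% for seBE under rapamycin, 1.74% for seBE under vehicle and 4.32% for intact BE under vehicle. Since the same libraries made the calls, these counts describe the 28 genes and nothing more is read from them. Across the 9117 genes with a mean log2 CPM of at least 3, the log2 ratios had an SD of 0.123 in seBE and 0.205 in intact BE, and their correlation across genes was 0.258 (Pearson). Over all 14985 genes it was 0.0114. The genes share libraries and are not independent.

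**Figure D1:**
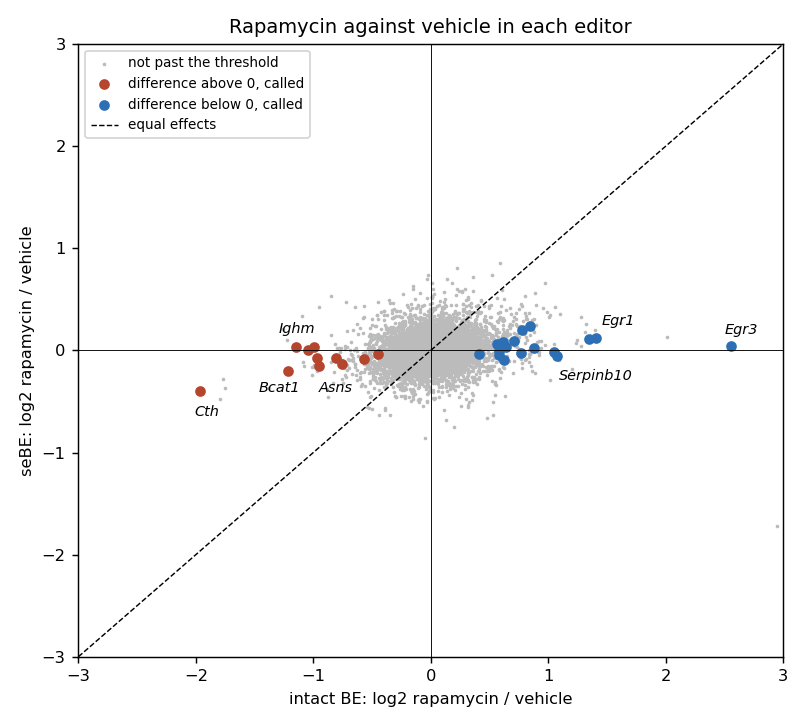
Log2 ratio of rapamycin to vehicle for each gene in intact BE (horizontal) and in seBE (vertical), for the 9930 genes with a mean of at least 5 CPM in some group. Coloured points are the 28 genes whose ratios differed between editors, red where the difference was positive and blue where it was negative. They spread along the horizontal axis, away from the dashed line of equal effects.

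**Figure D2:**
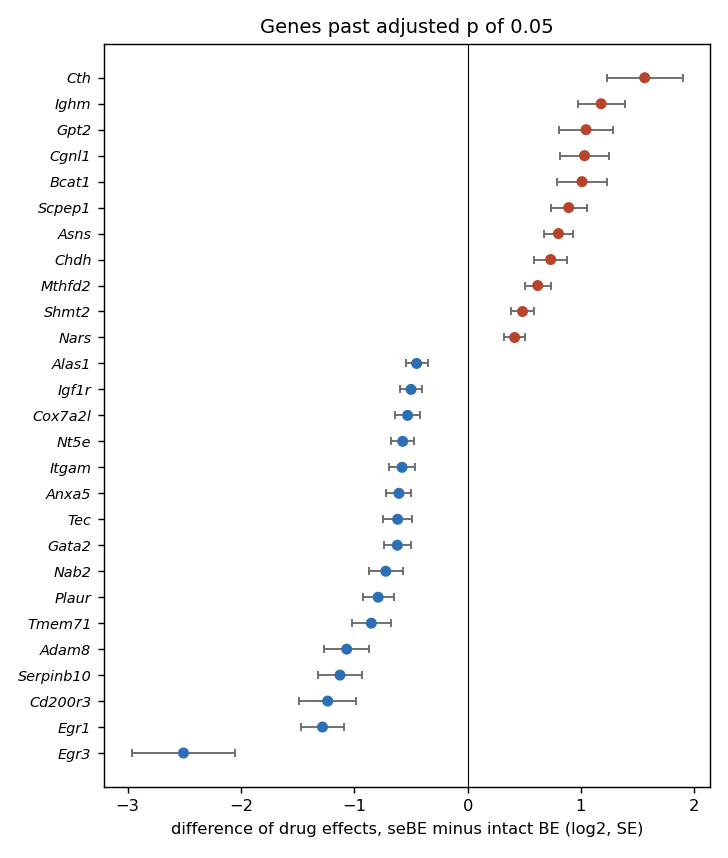
Difference of drug effects, seBE minus intact BE, with its SE, for 27 of the 28 genes past the threshold. Cth has the largest positive difference, at 1.56, and Egr3 the largest negative one, at -2.51.

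The number of genes depended on single libraries. It was 56 without seBE rapamycin replicate 1, 17 without seBE vehicle replicate 1, 11 without intact BE rapamycin replicate 1, and 15 and 13 without intact BE vehicle replicates 2 and 3. Every one of the 28 kept its sign under all 23 alternatives, and 8 genes (Egr1, Asns, Serpinb10, Plaur, Ighm, Nt5e, Scpep1 and Anxa5) also stayed past the threshold in each of them. The alternatives reuse the libraries that made the calls, so a kept sign is no independent support.

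Of the 11 positive genes, 5 were members of the list of ATF4 targets and one-carbon enzymes, namely Asns, Mthfd2, Shmt2, Cth and Gpt2. In intact BE they were lower under rapamycin. In seBE the log2 ratios of rapamycin to vehicle were smaller in size, from 0.0032 for Gpt2 to -0.40 for Cth. Asns (ENSMUSG00000029752.13), which encodes asparagine synthetase, stood at 88.4, 92.5 and 91.9 CPM in seBE under rapamycin and 107, 100 and 95.2 under vehicle, against 72.3, 60.8 and 63.2 CPM in intact BE under rapamycin and 132, 137 and 111 under vehicle. The 3 libraries of intact BE under rapamycin were below the other 9, and those of intact BE under vehicle were above the other 9. Outside the contrast and without rapamycin, Asns averaged 157 ± 15.8 CPM (SD, n = 3) in nCas9 and 98.4 ± 7.31 in catalytic mutant cells. The difference of drug effects was 0.80 ± 0.125 (SE, adjusted p = 0.00176). Its promoter is shown because Asns is the positive gene whose window holds a match to the ATF4 composite element, in capitals. The sequence is from RefSeq on GRCm38.p6, chr6:7693160-7693459, minus strand, an older build than the GRCm39 of the counts, and runs from 250 bases before to 50 after the start, 5′ to 3′.
Asns: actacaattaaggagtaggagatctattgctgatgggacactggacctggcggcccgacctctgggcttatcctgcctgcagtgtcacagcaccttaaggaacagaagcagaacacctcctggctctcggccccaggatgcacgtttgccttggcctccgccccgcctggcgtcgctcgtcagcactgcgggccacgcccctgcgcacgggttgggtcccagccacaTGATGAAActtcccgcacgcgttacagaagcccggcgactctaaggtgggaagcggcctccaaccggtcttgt
The motif searched was TGATGNAA on both strands. It occurs in 3.97% of 32851 promoter windows, and of the 8 positive genes with a window in the table Asns held it.

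Mthfd2, a mitochondrial enzyme of folate metabolism, stood at 154, 140 and 145 CPM in seBE under rapamycin and 171, 152 and 159 under vehicle, against 94.3, 115 and 111 CPM in intact BE under rapamycin and 177, 192 and 172 under vehicle. Shmt2, which makes glycine from serine in mitochondria, stood at 319, 319 and 302 CPM in seBE under rapamycin and 336, 347 and 311 under vehicle, against 214, 250 and 257 CPM in intact BE under rapamycin and 323, 378 and 365 under vehicle. For both genes the intact BE rapamycin libraries were the lowest of the 12, and for Mthfd2 the intact BE vehicle libraries were the highest of the 12. Outside the contrast, Mthfd2 averaged 177 ± 13.9 CPM (SD, n = 3) in nCas9 and 153 ± 8.49 in catalytic mutant cells. The differences of drug effects were 0.62 ± 0.114 (SE, adjusted p = 0.00608) for Mthfd2 and 0.48 ± 0.103 (SE, adjusted p = 0.028) for Shmt2. Cth, which encodes the last enzyme of cysteine synthesis from methionine, had the largest positive difference, at 1.56 ± 0.337 (SE, adjusted p = 0.039). Its levels were 8.32, 13.7 and 7.78 CPM in seBE under rapamycin and 11.7, 15.8 and 11.8 under vehicle, against 4.43, 3.87 and 4.15 CPM in intact BE under rapamycin and 13.7, 22.3 and 12.9 under vehicle. The vehicle libraries of intact BE were spread widely, while its rapamycin libraries were close together and lowest. Cth averaged 28 ± 8.54 CPM (SD, n = 3) in nCas9 and 12.5 ± 2.62 in catalytic mutant cells, both without rapamycin.

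Gpt2, a mitochondrial alanine transaminase, averaged 19.1 ± 2.09 CPM in seBE under rapamycin, 19.1 ± 0.898 in seBE under vehicle, 11.7 ± 1.75 in intact BE under rapamycin and 24.1 ± 4.52 in intact BE under vehicle (SD, n = 3 each), with a difference of 1.05 ± 0.236 (SE, adjusted p = 0.0484). Without rapamycin, Gpt2 averaged 30.1 ± 9.09 CPM in nCas9 and 20.8 ± 1.78 in catalytic mutant cells. Bcat1, Chdh and Nars are not in the list of ATF4 targets and one-carbon enzymes. Bcat1, the cytosolic branched-chain transaminase, averaged 11.5 ± 1.69 CPM in seBE under rapamycin, 13.3 ± 0.865 in seBE under vehicle, 8.59 ± 1.21 in intact BE under rapamycin and 20 ± 1.49 in intact BE under vehicle, with a difference of 1.01 ± 0.219 (SE, adjusted p = 0.0325). Chdh, the mitochondrial choline dehydrogenase, averaged 51.9 ± 1.16 CPM in seBE under rapamycin, 54.9 ± 7.02 in seBE under vehicle, 29.4 ± 2.71 in intact BE under rapamycin and 51.5 ± 3.91 in intact BE under vehicle, with a difference of 0.73 ± 0.147 (SE, adjusted p = 0.0172). Nars, the asparaginyl-tRNA synthetase, averaged 343 ± 3.6 CPM in seBE under rapamycin, 351 ± 14.5 in seBE under vehicle, 312 ± 4.7 in intact BE under rapamycin and 427 ± 16 in intact BE under vehicle, with a difference of 0.42 ± 0.0933 (SE, adjusted p = 0.0468). Bcat1 and Nars were among 3 of the 28 genes, with Scpep1, in which the editors stood further apart under vehicle than under rapamycin. In nCas9 cells, without rapamycin, Bcat1 averaged 20 ± 2.09 CPM and Nars 417 ± 17.8. In catalytic mutant cells Bcat1 averaged 17.3 ± 0.864 CPM and Nars 348 ± 23.5.

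Leaving out a single library ended several of these calls. Mthfd2 lost its call without intact BE rapamycin replicate 1 (adjusted p = 0.0573). Shmt2 lost it without seBE rapamycin replicate 2, seBE vehicle replicates 1 or 3, intact BE rapamycin replicate 1, or intact BE vehicle replicates 2 or 3 (adjusted p up to 0.184). Cth lost it without seBE rapamycin replicate 2, seBE vehicle replicates 1 or 3, intact BE rapamycin replicates 1, 2 or 3, or intact BE vehicle replicate 2 (adjusted p up to 0.18). Gpt2 lost it without seBE rapamycin replicates 2 or 3, seBE vehicle replicates 1, 2 or 3, intact BE rapamycin replicates 1 or 3, or intact BE vehicle replicates 2 or 3 (adjusted p up to 0.29). Bcat1 lost it without seBE rapamycin replicates 1 or 2, seBE vehicle replicates 1, 2 or 3, intact BE rapamycin replicates 2 or 3, or intact BE vehicle replicates 2 or 3 (adjusted p up to 0.171). Chdh lost it without seBE vehicle replicates 2 or 3, intact BE rapamycin replicates 1 or 3, or intact BE vehicle replicates 2 or 3 (adjusted p up to 0.0993). Nars lost it without any of 11 libraries, seBE rapamycin replicate 1 being the exception (adjusted p up to 0.247). In a fit of the 12 libraries alone Shmt2 had an adjusted p of 0.0698 and Bcat1 of 0.0549. With RLE factors Gpt2 and Nars had 0.0538, without the mitochondrial genes and the most abundant gene 0.0541, and Gpt2 also missed with a filter of 1 CPM in 3 libraries (0.0552) and at equal depth (0.0611).

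As a list, ATF4 targets and one-carbon enzymes had 5 of 28 tested members past the threshold, all positive, against 0.0734% of all genes. A further 13 were positive at an unadjusted p under 0.05, so that 18 of 28 passed that mark upward and 0 downward, against 3.46% of all genes upward. The median difference of the list was 0.48, against 0.0067 over all genes, and 25 of 28 members were above 0. Members that missed the adjusted threshold included Stc2 at 0.77, Sesn2 at 0.62 (adjusted p = 0.0655), the serine synthesis genes Phgdh at 0.47, Psat1 at 0.36 and Psph at 0.61, Trib3 at 1.49 and Atf4 itself at 0.30. Ddit3, the transcription factor CHOP, was at 0.0037, and Cebpb was at -0.08. Between 1 and 11 members passed over all alternatives, and the median ran from 0.41 to 0.53. Of 20 aminoacyl-tRNA synthetases, which charge tRNAs with amino acids, 1 passed (Nars), 10 were positive at an unadjusted p under 0.05 and 0 negative, and the median was 0.22. Of 16 amino acid transporters 0 passed by edgeR and 1 by DESeq2. The gene called by DESeq2 was Slc7a11, which went the other way, at -0.92 (adjusted p = 0.148 by edgeR). At an unadjusted p under 0.05, 2 transporters were positive and 1, Slc7a11, was negative, against 3.46% and 3.5% of all genes.

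**Figure D3:**
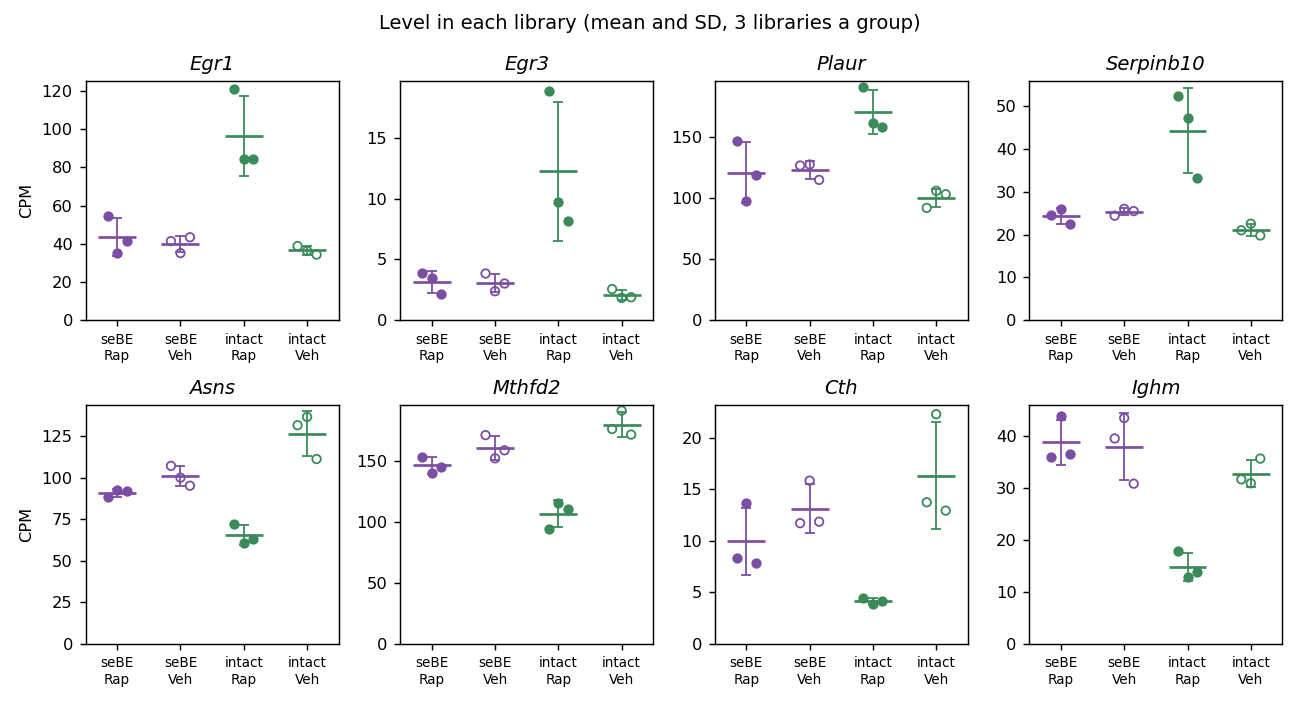
CPM in each library for 8 genes, with the group mean and SD, in the groups seBE rapamycin, seBE vehicle, intact BE rapamycin and intact BE vehicle. Filled points are rapamycin and open points vehicle. The intact BE rapamycin libraries are highest for the 4 genes of the upper row and lowest for the 4 of the lower row.

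Ighm, Scpep1 and Cgnl1 were the other positive genes. Ighm (ENSMUSG00000076617.10), the constant part of the immunoglobulin mu heavy chain, stood at 35.8, 43.7 and 36.6 CPM in seBE under rapamycin and 39.5, 43.4 and 30.8 under vehicle, against 17.8, 12.7 and 13.7 CPM in intact BE under rapamycin and 31.6, 30.8 and 35.6 under vehicle. Its 3 intact BE rapamycin libraries were below the other 9, and the other 3 groups overlapped. The difference of drug effects was 1.18 ± 0.207 (SE, adjusted p = 0.00564). Ighm was the most abundant of 12 lymphocyte markers. Of the 5 markers tested 2 were positive and 3 negative, with a median difference of -0.37, and only Ighm passed. Cd3e, Cd8a, Ms4a1 and Ncr1 had no count in any of the 12 libraries, and the sum over the 12 was 40.2 to 53.6 CPM in seBE under rapamycin, 36.2 to 49 under vehicle, 19.1 to 24 in intact BE under rapamycin and 39.1 to 47.1 under vehicle. In bulk libraries more cells of a type and more RNA per cell cannot be told apart. Scpep1, a serine carboxypeptidase, stood at 26.2, 29.9 and 28.2 CPM in seBE under rapamycin and 29.9, 32.1 and 26.9 under vehicle, against 23.1, 26.9 and 22.9 CPM in intact BE under rapamycin and 43.4, 51.3 and 48.1 under vehicle. Here, within the 12 libraries of the contrast, intact BE under vehicle was the group that stood apart, above the other 9. Outside the contrast and without rapamycin, Scpep1 stood at 42.9, 50.5 and 39.6 CPM in nCas9 cells. In catalytic mutant cells it stood at 34.5, 36.1 and 34.5 CPM. The difference of drug effects was 0.89 ± 0.16 (SE, adjusted p = 0.00564). Cgnl1, a cell junction protein gene, had a difference of 1.03 ± 0.217 (SE, adjusted p = 0.0266), and lost its call without seBE rapamycin replicates 2 or 3, seBE vehicle replicate 1, intact BE rapamycin replicates 1 or 2, or intact BE vehicle replicates 1, 2 or 3 (adjusted p up to 0.123).

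Early growth response genes led the negative group. They were higher under rapamycin in intact BE, with no such rise in seBE. Egr1 (ENSMUSG00000038418.8), a zinc finger transcription factor induced within minutes by growth signals, stood at 54.3, 35 and 41.5 CPM in seBE under rapamycin and 41.4, 35.1 and 43.4 under vehicle, against 121, 84.5 and 84.3 CPM in intact BE under rapamycin and 38.8, 36.3 and 34.3 under vehicle. The lowest intact BE rapamycin library was above the highest of the other 9. The difference of drug effects was -1.28 ± 0.188 (SE, adjusted p = 0.00176), the smallest adjusted p of the contrast together with Asns. Egr3, of the same family, stood at 3.85, 3.49 and 2.13 CPM in seBE under rapamycin and 3.83, 2.37 and 3.01 under vehicle, against 18.8, 9.73 and 8.19 CPM in intact BE under rapamycin and 2.55, 1.82 and 1.88 under vehicle. Its difference was -2.51 ± 0.457 (SE, adjusted p = 0.00564), the largest in size among the 28. Replicate 1 of intact BE under rapamycin was about as high as the other 2 together, and without it the adjusted p was 0.0841. Nab2, a corepressor that binds EGR proteins, averaged 35.9 ± 3.98 CPM in seBE under rapamycin, 38.4 ± 0.873 in seBE under vehicle, 50.7 ± 6.28 in intact BE under rapamycin and 32.9 ± 1.11 in intact BE under vehicle (SD, n = 3 each), with a difference of -0.72 ± 0.149 (SE, adjusted p = 0.02). It lost its call without seBE rapamycin replicate 2, seBE vehicle replicate 1, intact BE rapamycin replicates 1 or 2, or intact BE vehicle replicates 1, 2 or 3 (adjusted p up to 0.113).

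Other immediate-early genes did not pass. Of 21 tested members of that list Egr1 and Egr3 passed, 6 were negative and 1, Jun, positive at an unadjusted p under 0.05, against 3.5% and 3.46% of all genes, and the median was -0.26. Egr2 was at -1.50 and Ier2 at -0.39, while Fos was at -0.04, Nr4a1 at -0.06 and Jun at 0.98. Of 22 RAS-MAPK feedback genes 0 passed by edgeR or DESeq2 and 2 were negative at an unadjusted p under 0.05, with Dusp5, a phosphatase of ERK, at -0.60 ± 0.181 (SE, adjusted p = 0.268) and Dusp6 at -0.25, while Spry2 and Spred2 were at -0.0068 and -0.0030. The list median was -0.03.

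Plaur, Serpinb10 and Adam8, none of them in a list used here, were also negative. Of 16 tested serpins and surface genes 0 passed by edgeR or DESeq2, and the median was -0.12. At an unadjusted p under 0.05, 3 were negative and 0 positive, against 3.5% and 3.46% of all genes. Plaur (ENSMUSG00000046223.11), the urokinase receptor, stood at 146, 97 and 118 CPM in seBE under rapamycin and 126, 127 and 115 under vehicle, against 190, 161 and 158 CPM in intact BE under rapamycin and 91.7, 106 and 103 under vehicle. Serpinb10, an intracellular inhibitor of serine proteases, stood at 24.6, 26 and 22.5 CPM in seBE under rapamycin and 24.4, 26 and 25.5 under vehicle, against 52.3, 47.3 and 33.3 CPM in intact BE under rapamycin and 21, 22.5 and 19.8 under vehicle. In both genes every intact BE rapamycin library was above the other 9. The differences were -0.79 ± 0.138 (SE, adjusted p = 0.00564) for Plaur and -1.13 ± 0.193 (SE, adjusted p = 0.00564) for Serpinb10. Adam8, a membrane metalloprotease, stood at 307, 239 and 190 CPM in seBE under rapamycin and 255, 259 and 229 under vehicle, against 418, 370 and 292 CPM in intact BE under rapamycin and 170, 174 and 176 under vehicle. Its intact BE rapamycin libraries did not stand apart, since seBE replicate 1 under rapamycin was above the lowest of them. The intact BE vehicle libraries of Adam8 were below all others. Its difference of drug effects was -1.07 ± 0.197 (SE, adjusted p = 0.0308). The call ended without any of 9 libraries, those other than seBE rapamycin replicates 1 and 3 and intact BE rapamycin replicate 3 (adjusted p up to 0.174). Adam8 also missed in the 12 libraries alone (adjusted p = 0.0567), at equal depth (0.0699) and without nCas9 replicate 2 and catalytic mutant replicate 3 (0.112). For Plaur and Adam8, as for Egr1 and Egr3, replicate 1 was the highest library both of seBE under rapamycin and of intact BE under rapamycin.

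Itgam, the integrin CD11b, stood at 153, 163 and 134 CPM in seBE under rapamycin and 152, 151 and 146 under vehicle, against 223, 193 and 186 CPM in intact BE under rapamycin and 130, 143 and 131 under vehicle. Nt5e, the ectonucleotidase CD73, stood at 186, 170 and 194 CPM in seBE under rapamycin and 168, 151 and 159 under vehicle, against 326, 296 and 300 CPM in intact BE under rapamycin and 192, 176 and 172 under vehicle. For both genes the intact BE rapamycin libraries were above the other 9. The differences were -0.58 ± 0.112 (SE, adjusted p = 0.0127) for Itgam and -0.57 ± 0.102 (SE, adjusted p = 0.00564) for Nt5e. Itgam lost its call without intact BE rapamycin replicate 1 or intact BE vehicle replicate 3 (adjusted p up to 0.0928). Of 29 tested mature myeloid effectors and receptors, 2 passed, Itgam among them, against 0.113% of all genes in that direction. At an unadjusted p under 0.05, 7 were negative and 1 positive, against 3.5% and 3.46% of all genes, and the list median was -0.12. Cd14 was at -0.62 and Lyz2 at -0.36 without passing, whereas Ly6c2 was at -0.02 and Csf1r at 0.03. Anxa5, a phospholipid-binding annexin, averaged 156 ± 5.6 CPM in seBE under rapamycin, 152 ± 2.97 in seBE under vehicle, 264 ± 25.4 in intact BE under rapamycin and 169 ± 12.2 in intact BE under vehicle, with a difference of -0.61 ± 0.11 (SE, adjusted p = 0.00564).

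Gata2 and Cd200r3, which are known from mast cells and basophils, were in the same group. Gata2, a transcription factor of progenitors and mast cells, stood at 101, 89.5 and 86.1 CPM in seBE under rapamycin and 100, 98.3 and 86.8 under vehicle, against 120, 128 and 129 CPM in intact BE under rapamycin and 74.6, 88.6 and 89.4 under vehicle. Cd200r3, a surface receptor, stood at 12.5, 10.9 and 12.7 CPM in seBE under rapamycin and 9.71, 12.3 and 11.2 under vehicle, against 25.1, 22.2 and 23.3 CPM in intact BE under rapamycin and 8.11, 11.4 and 8.25 under vehicle. Again the intact BE rapamycin libraries were above the other 9 in both genes. The differences were -0.62 ± 0.121 (SE, adjusted p = 0.0129) for Gata2 and -1.24 ± 0.249 (SE, adjusted p = 0.0175) for Cd200r3. The call of Gata2 ended without seBE vehicle replicate 1 or intact BE vehicle replicate 1 (adjusted p up to 0.0719), and that of Cd200r3 without seBE rapamycin replicate 2, seBE vehicle replicate 2, intact BE rapamycin replicate 1, or intact BE vehicle replicates 1 or 3 (adjusted p up to 0.0816). The summed level of 7 mast cell and basophil markers was 364 to 386 CPM in seBE under rapamycin, 349 to 371 under vehicle, 482 to 486 in intact BE under rapamycin and 334 to 370 under vehicle, led by Hdc. Of the 5 markers tested Gata2 passed, Hdc was at -0.34 and Ms4a2 at 0.68, and Fcer1a and Prss34 had no count. The part of these markers in the other results was not tested.

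Igf1r, Alas1, Tec, Cox7a2l and Tmem71 were the other negative genes described here. Igf1r, the receptor of insulin-like growth factor 1, stood at 368, 339 and 316 CPM in seBE under rapamycin and 335, 316 and 329 under vehicle, against 517, 459 and 458 CPM in intact BE under rapamycin and 338, 311 and 323 under vehicle. Alas1, the first enzyme of heme synthesis, stood at 375, 348 and 316 CPM in seBE under rapamycin and 375, 357 and 333 under vehicle, against 431, 440 and 408 CPM in intact BE under rapamycin and 309, 316 and 335 under vehicle. In both genes the intact BE rapamycin libraries were the highest 3 of the 12. The differences were -0.50 ± 0.0979 (SE, adjusted p = 0.0129) for Igf1r and -0.45 ± 0.0981 (SE, adjusted p = 0.0335) for Alas1. Igf1r lost its call without seBE vehicle replicate 1, intact BE rapamycin replicate 1, or intact BE vehicle replicates 2 or 3 (adjusted p up to 0.0982), and Alas1 without any of 9 libraries, those other than seBE rapamycin replicate 1, seBE vehicle replicate 3 and intact BE rapamycin replicate 3 (adjusted p up to 0.199). In the 12 libraries alone Alas1 had an adjusted p of 0.0597, and at equal depth Tec had one of 0.0753. No other member of the 21 insulin receptor, IRS and FOXO genes passed, nor of the 10 heme synthesis genes. Tec, a tyrosine kinase of blood cells, had a difference of -0.62 ± 0.126 (SE, adjusted p = 0.0184), Cox7a2l, an assembly factor of respiratory supercomplexes, of -0.53 ± 0.112 (SE, adjusted p = 0.0269), and Tmem71 of -0.85 ± 0.174 (SE, adjusted p = 0.0184). Tec lost its call without seBE rapamycin replicate 3, seBE vehicle replicate 2, intact BE rapamycin replicate 1, or intact BE vehicle replicates 2 or 3 (adjusted p up to 0.106), Cox7a2l without seBE rapamycin replicate 3, seBE vehicle replicates 2 or 3, intact BE rapamycin replicate 2, or intact BE vehicle replicates 1 or 3 (up to 0.142) and Tmem71 without seBE rapamycin replicate 3, seBE vehicle replicates 1 or 3, intact BE rapamycin replicates 1 or 2, or intact BE vehicle replicates 2 or 3 (up to 0.0972).

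Promoter windows were in the table for 13 of the 17 negative genes. They were searched on both strands for 2 spellings of the EGR element and for the CArG box, the element of serum response factor. GCGGGGGCG was found in Plaur and Alas1, against 2.91% of all windows, and the CArG box in Anxa5, against 1.63%. GCGTGGGCG, found in 0.612% of all windows, was in none of the 13. Negative genes without a window were not searched, so a gene missing from these matches may have had no window. The 3 windows with a match are printed from RefSeq on GRCm38.p6, 5′ to 3′, with the match in capitals. Plaur lies at chr7:24462233-24462532, plus strand, Alas1 at chr9:106247905-106248204, minus strand and Anxa5 at chr3:36475838-36476137, minus strand.
Plaur: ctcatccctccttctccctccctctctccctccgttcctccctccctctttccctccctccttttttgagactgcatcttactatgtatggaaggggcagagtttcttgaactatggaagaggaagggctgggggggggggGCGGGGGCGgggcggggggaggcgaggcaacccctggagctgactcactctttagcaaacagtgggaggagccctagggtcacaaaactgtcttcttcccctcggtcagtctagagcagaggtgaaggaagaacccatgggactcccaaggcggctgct
Alas1: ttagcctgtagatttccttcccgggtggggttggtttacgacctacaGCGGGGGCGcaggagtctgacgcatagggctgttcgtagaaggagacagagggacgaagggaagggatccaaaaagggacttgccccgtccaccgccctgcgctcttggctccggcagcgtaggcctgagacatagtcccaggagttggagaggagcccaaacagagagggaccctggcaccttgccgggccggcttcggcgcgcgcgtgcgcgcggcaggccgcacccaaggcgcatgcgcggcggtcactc
Anxa5: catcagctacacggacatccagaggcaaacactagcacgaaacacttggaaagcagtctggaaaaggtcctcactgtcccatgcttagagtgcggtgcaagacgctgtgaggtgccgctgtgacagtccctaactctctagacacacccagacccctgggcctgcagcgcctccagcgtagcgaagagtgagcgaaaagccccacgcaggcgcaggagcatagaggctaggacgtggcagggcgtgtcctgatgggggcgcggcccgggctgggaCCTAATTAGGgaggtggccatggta
A match describes the letters of a window and not a bound site.

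**Figure D4:**
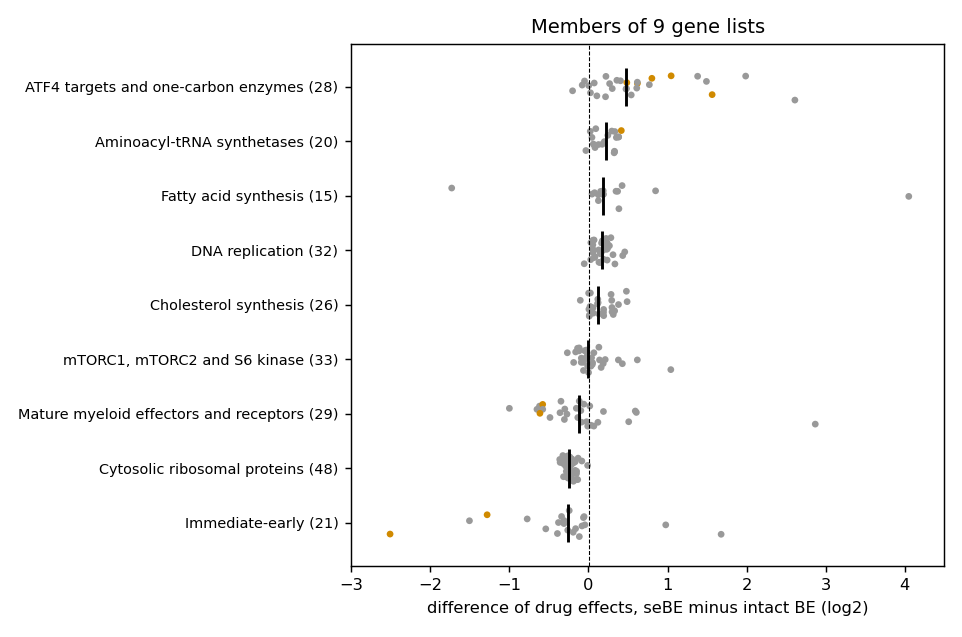
Difference of drug effects, seBE minus intact BE (log2), for the tested members of 9 gene lists, with list sizes in parentheses. Orange points passed the threshold, black bars are list medians and the dashed line is the median of all genes, at 0.0067. ATF4 targets lie to the right, with a median of 0.48, and ribosomal proteins lie in a narrow band to the left, with a median of -0.25.

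Cytosolic ribosomal protein genes, whose translation is a classical target of mTORC1, showed small differences of one sign. All 48 tested members were below 0, 29 of them at an unadjusted p under 0.05, against 3.5% of all genes, but 0 passed the adjusted threshold by edgeR. The list median was -0.25, and it was -0.22 after removal of a trend on transcript length and GC content. Rpl4 had the smallest p and stood at 2354, 2334 and 2439 CPM in seBE under rapamycin and 2393, 2399 and 2317 under vehicle, against 2662, 2782 and 2728 CPM in intact BE under rapamycin and 2138, 2194 and 2194 under vehicle, with a difference of -0.32 ± 0.0851 (SE, adjusted p = 0.149). Between 0 and 13 members passed over all alternatives, and 4 passed by DESeq2, Rpl4 included. Ribosomal protein genes have near-identical pseudogene copies, so their counts are uncertain where the counting could split reads.

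At an unadjusted p under 0.05, 3.46% of all genes were positive and 3.5% negative, the shares to set beside each list that follows. Of 33 tested genes of mTORC1, mTORC2 and S6 kinase signalling 0 passed by edgeR, and 1 was positive at an unadjusted p under 0.05, with a median of -0.01. That gene, Sesn2, a sestrin that is also in the lists of ATF4 and p53 targets, passed by DESeq2 and in 5 other alternatives (adjusted p down to 0.00739). Mtor had a difference of -0.06 ± 0.118 (SE, adjusted p = 0.969) and Fkbp1a of -0.02 ± 0.0983 (SE, adjusted p = 0.991). Of 11 FK506-binding proteins 0 passed by edgeR or DESeq2 and 2 were positive at an unadjusted p under 0.05, with Fkbp11 at 0.47 ± 0.181 (SE, adjusted p = 0.505). Among genes of the DNA damage response, Cdkn1a was at -0.01 ± 0.112 (SE, adjusted p = 0.995) and Mdm2 at -0.06 ± 0.101 (SE, adjusted p = 0.963). Ung, the glycosylase that removes uracil from DNA, was at 0.15 ± 0.182 (SE, adjusted p = 0.951). Apobec1, the host gene related to the deaminase of the editors, was at -0.03 ± 0.186 (SE, adjusted p = 0.991). Of 32 p53 targets 0 passed by edgeR and 1, Sesn2, by DESeq2, with 3 positive at an unadjusted p under 0.05 and a median of 0.08. Of 24 base excision repair genes 0 passed by either tool, with 1 positive at an unadjusted p under 0.05 and a median of -0.03. Of 8 mismatch repair genes 0 passed by either tool, with 2 positive at that mark and a median of 0.08. Of 30 recombination and checkpoint genes 0 passed by edgeR and 1 by DESeq2, with 4 positive and 1 negative at that mark and a median of 0.10. The gene called by DESeq2 was Brip1, a Fanconi helicase gene, at 0.56 ± 0.137 (SE, adjusted p = 0.0927) by edgeR, which passed in 5 alternatives in all (adjusted p down to 0.0134). A miss of the threshold does not show equal responses.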

How the data were processed

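Polyadenylated RNA was sequenced from directional libraries of RN2 cells. Raw counts of reads for each Ensembl gene were deposited by the authors, who made them, per the submitters' processing notes, with fastp 1.0.1, STAR 2.7.1a on GRCm39, SAMtools 1.9 and featureCounts of Subread 2.0.3. The sources used here give no annotation release, strand setting or treatment of multi-mapping reads, so reads of overlapping antisense genes cannot be told apart. Symbols matched 52073 of 56748 gene IDs.

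Genes were filtered with filterByExpr of edgeR 4.0.16 in R 4.3.3, which left 14985 genes with 99.93% of counts. A quasi-likelihood model (robust, TMM scaling) with 6 group means was fitted to all 18 libraries and tested by F. The tested contrast was rapamycin minus vehicle in seBE, less rapamycin minus vehicle in intact BE, so a positive value means a higher ratio in seBE. Benjamini-Hochberg adjustment of the p-values ran over all 14985 genes, and a gene passed at 0.05 or less. The SE was taken as the absolute log2 value over the root of F. Levels are CPM on TMM-scaled library sizes, which do not correct for gene length. With a common dispersion of 0.0176 the biological coefficient of variation was 13.3%. The test was tried on simulated counts with known changes.

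Genes were named by rule: up to 12 largest differences past the threshold in each direction with at least 5 CPM in some group and a proper symbol, up to 2 called members of each gene list or else the member of smallest p, and Fkbp1a, Mtor, Apobec1, Cdkn1a, Mdm2 and Ung. Nt5e and Cox7a2l, which passed outside the rule, and further list members were chosen after their values were seen. The contrast and the gene lists were chosen with earlier results of these data known. Lists are described by counts and medians without a test. Promoter motifs were chosen after the calls were seen. Of the 28 genes past the threshold, 1 is counted but not reported here by name or value.

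Alternatives were DESeq2 1.42.0, RLE factors, 2 other filters, the 12 libraries alone, 2 replicate blocks, dropping the top gene and the mitochondrial genes, and each of the 12 libraries left out in turn. Chosen later, after seeing the data, were removal of a trend on transcript length and GC content (GENCODE M21, 97.4% of genes), thinning to 13835979 counts per library, and a fit without nCas9 replicate 2 and catalytic mutant replicate 3.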

Additional observations from a re-analysis of the deposited data

Results flagged for a closer look

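The response to rapamycin differed between seBE and intact BE, by the test of the difference itself, in 28 genes, of which 27 are given here. The log2 differences, seBE minus intact BE, were positive for Cth at 1.56, Ighm at 1.18, Gpt2 at 1.05, Cgnl1 at 1.03, Bcat1 at 1.01 and Scpep1 at 0.89. They were also positive for Asns at 0.80, Chdh at 0.73, Mthfd2 at 0.62, Shmt2 at 0.48 and Nars at 0.42. Negative differences stood at a larger size for Egr3 at -2.51, Egr1 at -1.28, Cd200r3 at -1.24, Serpinb10 at -1.13, Adam8 at -1.07 and Tmem71 at -0.85. Intermediate ones were those of Plaur at -0.79, Nab2 at -0.72, Gata2 at -0.62, Tec at -0.62, Anxa5 at -0.61 and Itgam at -0.58. The smallest negative ones were those of Nt5e at -0.57, Cox7a2l at -0.53, Igf1r at -0.50 and Alas1 at -0.45.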

How the results depend on the processing

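All 28 called genes kept their sign under 23 alternatives, which reuse the libraries that made the calls. Against 28 calls (11 positive, 17 negative), DESeq2 gave 75 genes (27 positive, 48 negative), no filter 66 genes (24 positive, 42 negative), and removal of the length and GC trend 77 genes (25 positive, 52 negative), and each of these 3 kept all 28 genes. Leaving out 1 library at a time gave 11 to 56 genes, 4 to 25 positive and 7 to 31 negative. RLE factors, a filter of 1 CPM in 3 libraries, the 12 libraries alone, equal depth, removal of mitochondrial genes with the top gene, and the fit without nCas9 replicate 2 and catalytic mutant replicate 3 gave 26 to 34 genes. With a replicate block there were 65 genes (26 positive, 39 negative) in 18 libraries and 142 genes (43 positive, 99 negative) with the block within each editor. Deviations of libraries of the same replicate number had correlations of -0.0692 to 0.0594 over 18 pairs, most of them across editors. Between rapamycin and vehicle of replicates 1 to 3 they were 0.0237, 0.0477 and 0.0594 in seBE. In intact BE they were 0.0321, 0.0585 and -0.00884. They were taken over all genes tested, those of low count included. The replicate numbers were not taken as pairs in the main fit, and these values do not settle whether they were. The mitochondrial share of counts, however, ranked replicates 1 to 3 alike under rapamycin and vehicle within each editor. In seBE it was 2.99%, 4.61% and 3.15% under rapamycin and 2.66%, 4.1% and 2.8% under vehicle. In intact BE it was 2.25%, 2.08% and 1.99% under rapamycin and 2.02%, 1.84% and 1.78% under vehicle. Whether libraries of the same number were handled together was not tested. Differences near 0 that passed nowhere turned positive in some alternatives. Apobec1 ran between -0.113 and 0.0696 with 1 library left out. Cdkn1a ran between -0.0753 and 0.0334 with 1 library left out, and was at 0.000736 after removal of the length and GC trend. Fkbp1a ran between -0.0556 and 0.0234 with 1 library left out. Klf1, an erythroid factor with at most 1.56 CPM, ran between -2.6 and 0.511 with 1 library left out, and was at 0.0429 after removal of the length and GC trend. The cause of these shifts was not tested. At equal depth 25 of the 28 calls were kept, without Adam8, Gpt2 and Tec. Of 39 named genes that did not pass, 11 passed in some alternative.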

Other observations

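Lists of lipid synthesis and DNA replication had most members above 0, against 51.1% of all genes, and were compared at an unadjusted p under 0.05 with the 3.46% of all genes that were positive there. Of 26 cholesterol synthesis genes 25 were above 0, 6 of them at an unadjusted p under 0.05, with a median of 0.13 and Acat2 at 0.49 ± 0.135 (SE, adjusted p = 0.203). Of 15 fatty acid synthesis genes 14 were above 0 and 6 passed that mark, with a median of 0.19 and the desaturase gene Scd2 at 0.38 ± 0.111 (SE, adjusted p = 0.238). Scd2 averaged 467 ± 47.1 CPM in seBE under rapamycin, 541 ± 36.6 in seBE under vehicle, 589 ± 57.2 in intact BE under rapamycin and 891 ± 73.2 in intact BE under vehicle (SD, n = 3 each). Of 32 DNA replication genes 31 were above 0 and 9 passed that mark, with a median of 0.17, and Rrm2, a subunit of ribonucleotide reductase, was at 0.33 ± 0.103 (SE, adjusted p = 0.283). Of 21 purine and pyrimidine synthesis genes 19 were above 0 and 6 passed that mark, with a median of 0.16. Of 21 ER chaperone genes 19 were above 0 and 6 passed that mark, with a median of 0.16 and Sdf2l1 at 0.37 ± 0.127 (SE, adjusted p = 0.387). In the edgeR fit of the report and by DESeq2, 0 members of these 5 lists passed the adjusted threshold. In other alternatives Acat2 passed in 5 (adjusted p down to 0.00845), Scd2 in 3 and Rrm2 in 1.

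Some genes missed the threshold in that fit and passed it in others. Slc7a11, the cystine transporter, stood at 71.9, 71.8 and 68.1 CPM in seBE under rapamycin and 65.9, 71.1 and 67.3 under vehicle, against 186, 129 and 130 CPM in intact BE under rapamycin and 80.2, 81.8 and 65.2 under vehicle. Its intact BE rapamycin libraries were all above the other 9. The difference was -0.92 ± 0.219 (SE, adjusted p = 0.148), and it passed in 5 alternatives, DESeq2 and the 12 libraries alone included (adjusted p down to 4.15e-07). Serpinb2, an inhibitor of plasminogen activators, stood at 7.89, 10 and 3.16 CPM in seBE under rapamycin and 7.04, 6.4 and 5.82 under vehicle, against 31.8, 18.2 and 11 CPM in intact BE under rapamycin and 5.44, 6.48 and 3.27 under vehicle, with a difference of -1.88 ± 0.565 (SE, adjusted p = 0.333), and passed in 3 alternatives. Eef1b2, an elongation factor subunit, stood at 717, 727 and 706 CPM in seBE under rapamycin and 695, 714 and 700 under vehicle, against 831, 901 and 820 CPM in intact BE under rapamycin and 620, 648 and 636 under vehicle. Its intact BE rapamycin libraries were the highest 3 and its intact BE vehicle libraries the lowest 3. The difference was -0.39 ± 0.0924 (SE, adjusted p = 0.0645), which passed in 6 alternatives, DESeq2 included. Irf8, a transcription factor of monocyte and dendritic cell fate, was at 0.44 ± 0.126 (SE, adjusted p = 0.231) and passed in 1 alternative. Poll, a repair DNA polymerase, was at 0.67 ± 0.194 (SE, adjusted p = 0.238) and passed in none of the 23 alternatives.

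Other pathway lists had medians between -0.14 and 0.13 and 0 members past the threshold in that edgeR fit. Over the alternatives up to 4 translation factors (2 by DESeq2), up to 3 myeloid factors and granule genes, up to 2 serpins and surface genes and up to 1 proteasome gene passed. Their members of smallest p were Pfkp at 0.31, Ifit2 at 0.75, Bcl2l1 at -0.48, Bub1b at 0.31, Psmb7 at 0.37, Exo1 at 0.34 and Polr1e at 0.46. They also included Atp6v1a at 0.28, Nfkb2 at -0.39, Runx2 at -0.23, Cyc1 at 0.23, Hspd1 at 0.23, Cdkn2a at -0.67, Tet2 at -0.20 and Syncrip at 0.17.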
